A study of Mus musculus with 101 samples.

Results

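The 32 genes described here encode parts of the lysosome: 9 cathepsins, 9 hydrolases of lipids and sugars, 2 hydrolase cofactors, 5 membrane proteins, 5 proton pump subunits, the transcription factor Tfeb, and Creg1. They were a list of gene symbols, chosen with earlier results of these data known but not by a threshold on any value. All 32 were found among the 24475 genes of both count tables. All 32 also passed the filter on low counts in every comparison below. The libraries were bulk RNA-seq of subcutaneous (SC) and epididymal (EPI) white fat of male mice on a C57BL/6NTac background, from 2 experiments that concern Inhbe, the gene of Activin E. In the first, WT mice on chow received AAV8 vectors that expressed mouse Inhbe (mInhbe) or GFP in the liver, with 10 libraries per vector and depot. In the second, Inhbe KO and WT mice without a vector were kept on a high-fat diet (HFD) or on chow. It had 8 KO HFD, 7 WT HFD, 7 KO chow and 8 WT chow libraries in SC fat and 8, 8, 7 and 8 in EPI fat. The sources used here do not give the age of the mice, the composition of the diet or the design of the KO allele. Each library is labelled as a biological replicate of its group, and p-values measure the spread between these replicates.

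The 101 libraries held between 12970509 and 20170746 counts each. Inhbe, the targeted gene, is made mainly in liver, so its transcript in fat checks the vector more than the KO. It had 35, 148 and 846 counts (lowest, median and highest) in mInhbe SC libraries and 4, 31 and 232 in mInhbe EPI libraries, against 0 in every GFP library. In the KO experiment it was at 0 in all but 3 libraries, with 1 count in a KO HFD SC library, 5 in a WT HFD SC library and 2 in a WT HFD EPI library, so it gave no check of the genotype. Several libraries stood apart. WT chow SC libraries 6 to 8 had 2301, 2521 and 1508 CPM (counts per 1e+06 of the library total) of 15 macrophage markers, against 682 to 1005 CPM in the other 5, and only 13268, 12940 and 15879 CPM of 10 adipocyte markers, against a median of 20733 CPM in their group. WT HFD EPI libraries 4 and 5 had 1149 and 4600 CPM of liver markers, against 2.55 to 3.88 CPM in the other 6. Without them 29 lysosome genes were called for HFD in WT EPI fat and 26 for KO against WT on HFD. EPI libraries carried epididymis markers, at up to 15396 CPM, against at most 1.27 CPM in SC libraries. Lymph node markers ran from 9.22 to 701 CPM in WT HFD SC libraries and from 7.58 to 1231 CPM in WT chow SC libraries. KO chow SC library 5 had 1627 CPM of macrophage markers, against 629 to 883 CPM in the other 6 of its group. The main results that change without such libraries are given with and without them.

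Lysosomes are acidic compartments in which cells break down what they take up and what autophagy delivers. A vacuolar proton pump (V-ATPase) acidifies the lumen. Cathepsins cut proteins there, and other hydrolases degrade lipids, glycans and glycolipids with the help of small activator proteins. TFEB is a transcription factor that switches on many lysosomal genes together through CLEAR elements, promoter sequences around an E-box. In fat, macrophages are rich in lysosomes, and in obesity lipid-laden macrophages gather around dying adipocytes and take up their lipid. Bulk tissue cannot tell apart a change in the number of such cells and a change in RNA per cell.

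The promoters of 5 lysosome genes with an E-box and of the 2 genes with the largest diet responses in WT EPI fat, Ctss and Lipa, are shown first, because TFEB is known to act through such sites. Each sequence is a promoter window from RefSeq (GRCm38.p6, the assembly that mm10 names), on the strand of the gene, and capitals mark the E-box CACGTG. The windows run from 250 bases before to 50 bases after the start of the gene, except that of Atp6v1a. The Atp6v1a window lies inside the annotated span of its gene, chr16:44085402-44139702.
Ctsd, chr7:142387778-142388077, minus strand: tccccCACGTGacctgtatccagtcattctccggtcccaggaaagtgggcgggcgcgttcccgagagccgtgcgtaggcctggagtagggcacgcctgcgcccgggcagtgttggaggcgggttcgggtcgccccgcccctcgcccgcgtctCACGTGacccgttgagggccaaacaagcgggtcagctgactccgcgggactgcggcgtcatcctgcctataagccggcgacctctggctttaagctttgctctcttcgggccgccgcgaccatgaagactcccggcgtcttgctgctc
Mcoln1, chr8:3500269-3500568, plus strand: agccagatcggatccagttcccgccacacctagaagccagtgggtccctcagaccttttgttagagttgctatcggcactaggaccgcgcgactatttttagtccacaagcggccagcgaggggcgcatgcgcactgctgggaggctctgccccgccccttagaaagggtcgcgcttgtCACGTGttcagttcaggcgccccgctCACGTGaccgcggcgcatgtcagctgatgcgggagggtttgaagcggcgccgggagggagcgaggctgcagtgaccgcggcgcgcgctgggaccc
Gla, chrX:134600956-134601255, minus strand: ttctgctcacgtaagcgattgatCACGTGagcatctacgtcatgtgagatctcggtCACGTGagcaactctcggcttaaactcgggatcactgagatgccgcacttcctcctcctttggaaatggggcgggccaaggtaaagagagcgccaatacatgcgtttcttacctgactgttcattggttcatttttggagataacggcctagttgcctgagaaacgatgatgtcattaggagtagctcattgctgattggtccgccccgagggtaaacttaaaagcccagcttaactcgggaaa
Atp6v1a, chr16:44139210-44139509, minus strand: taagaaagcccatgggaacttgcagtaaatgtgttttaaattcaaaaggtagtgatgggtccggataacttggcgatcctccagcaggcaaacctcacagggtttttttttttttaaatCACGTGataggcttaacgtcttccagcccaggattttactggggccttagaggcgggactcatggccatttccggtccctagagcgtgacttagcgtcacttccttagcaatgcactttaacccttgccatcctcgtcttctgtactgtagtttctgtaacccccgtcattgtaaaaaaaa
Lamp1, chr8:13158911-13159210, plus strand: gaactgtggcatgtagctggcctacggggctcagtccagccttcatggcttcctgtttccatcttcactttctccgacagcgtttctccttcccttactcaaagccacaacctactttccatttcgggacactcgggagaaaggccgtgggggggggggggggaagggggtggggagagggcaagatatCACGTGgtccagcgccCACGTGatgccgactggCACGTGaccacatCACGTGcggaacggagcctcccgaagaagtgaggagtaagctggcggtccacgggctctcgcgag
Ctss, chr3:95526536-95526835, plus strand: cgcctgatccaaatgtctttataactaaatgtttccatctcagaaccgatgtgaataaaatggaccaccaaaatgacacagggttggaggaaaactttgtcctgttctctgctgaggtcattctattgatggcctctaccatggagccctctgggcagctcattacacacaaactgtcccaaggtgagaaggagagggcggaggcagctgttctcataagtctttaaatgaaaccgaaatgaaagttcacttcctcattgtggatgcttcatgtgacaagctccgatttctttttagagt
Lipa, chr19:34527425-34527724, minus strand: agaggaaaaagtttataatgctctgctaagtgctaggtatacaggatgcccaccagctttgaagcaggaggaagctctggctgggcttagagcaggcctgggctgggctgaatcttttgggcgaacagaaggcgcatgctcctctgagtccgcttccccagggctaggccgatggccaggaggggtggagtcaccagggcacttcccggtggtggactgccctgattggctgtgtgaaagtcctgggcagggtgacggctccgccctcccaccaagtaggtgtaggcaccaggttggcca

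Of the 32 genes 27 had a promoter in the RefSeq table. The E-box CACGTG, which reads the same on both strands, lay in a promoter of 10 of these 27 (37.0%), against 2187 of 27025 genes in all (8.09%). The 10 genes were Ctsa, Ctsd, Ctsf, Ctsl, Gla, Glb1, Lamp1, Mcoln1, Atp6v0d1 and Atp6v1a. The longer form TCACGTGA, which contains the E-box, was searched for on both strands and lay at 6 of the 27 (22.2%), against 304 genes in all (1.12%). These 6 were Ctsa, Ctsd, Gla, Mcoln1, Atp6v0d1 and Atp6v1a. The 10-letter form GTCACGTGAC, which contains both shorter motifs, was in 0 of the 27 and in 100 genes in all (0.37%). Lamp1 held 4 E-boxes, Ctsd, Mcoln1 and Gla held 2 each and Atp6v1a held 1, whereas Ctss and Lipa held 0. A match describes letters in this window and not a bound site.

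Per kb of exon, and as a mean over the 12 groups, the most abundant of the 32 transcripts was Psap, the precursor of the saposins that present glycolipids to hydrolases, at 808 CPM per kb. Ctsd, an aspartic protease, followed at 670.5 CPM per kb, Ctsb, a cysteine protease, at 437 CPM per kb and Lamp1, a major glycoprotein of the lysosomal membrane, at 356 CPM per kb. At the low end were Mcoln1, a cation channel of the lysosomal membrane, at 12.9 CPM per kb, Tfeb at 6.1 CPM per kb and Gla, the alpha-galactosidase that degrades globosides, at 5.3 CPM per kb.

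The comparison of diets in WT mice asked what HFD does to fat without loss of Inhbe. In EPI fat the lysosome genes rose broadly. Of the 32 genes 29 were higher and 0 were lower on HFD than on chow at an adjusted p under 0.05 in edgeR's quasi-likelihood test, which was the threshold throughout. Of all 15042 genes tested 28.9% were higher and 25.2% were lower, or 54.1% in all. The median log2 fold change was 1.20 over the 32 genes and -0.02 over all genes tested. Summed over the 32 genes, WT HFD EPI libraries had 24914, 25964 and 29722 CPM (lowest, median and highest), against 7904, 8398 and 9428 CPM in WT chow EPI libraries. The groups did not overlap, and the lysosome genes made up a median of 2.60% of all counts on HFD and 0.84% on chow.

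**Figure D1:**
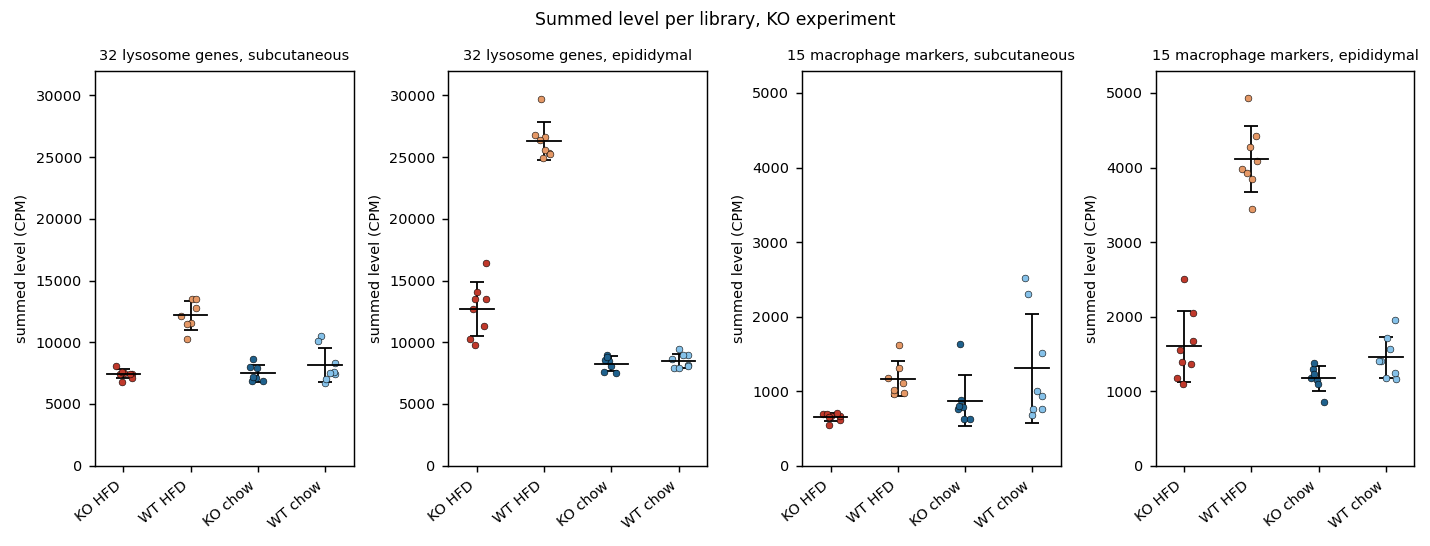
Summed level in CPM of the 32 lysosome genes and of 15 macrophage markers in SC and EPI fat of the KO experiment, one point per library, with the line at the group mean and the bar 1 SD either way. In EPI fat all 8 WT HFD libraries lay at or above 24914 CPM of lysosome genes and no KO HFD library lay above 16417 CPM, and WT chow SC holds 3 libraries high in macrophage markers.

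Among the cathepsins 7 of 9 were higher on HFD in WT EPI fat and 0 were lower, with a median log2 fold change of 1.95. The largest change of all was in Ctss (Entrez 13040, chromosome 3, 95526786 to 95556405), a cysteine protease known from antigen-presenting cells. It had 724, 910.1 and 1119.5 CPM on HFD, against 61.1, 87.8 and 125 CPM on chow. Every HFD library exceeded every chow library, by 10.8-fold in the fit (log2 fold change 3.43 ± 0.19 SE, n = 8 each, adjusted p = 2.43e-15). Ctsd had 3770.4, 3889 and 4782 CPM on HFD, against 757, 938 and 1100.2 CPM on chow, also without overlap (log2 2.22 ± 0.16, adjusted p = 5.93e-13). Ctsl, a cysteine endopeptidase, had 1474, 1963 and 2281 CPM on HFD and 424, 506 and 531 CPM on chow (log2 2.07 ± 0.12, adjusted p = 4.47e-15). Its groups were likewise apart. The exceptions among the cathepsins were Ctsf and Ctsc, with log2 fold changes of 0.02 ± 0.12 (adjusted p = 0.906) and -0.20 ± 0.12 (adjusted p = 0.152). Ctsc activates granule proteases of immune cells and had 127, 163 and 186 CPM on HFD and 160.4, 188 and 278 CPM on chow, with overlap.

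Of the 9 hydrolases of lipids and sugars 8 were higher and 0 were lower on HFD in WT EPI fat, with a median log2 fold change of 1.10. Lipa (Entrez 16889, chromosome 19, 34492316 to 34527474) encodes lysosomal acid lipase, which frees fatty acids and cholesterol from lipids taken up by the cell. It had 684, 725 and 921 CPM on HFD, against 84.7, 95.1 and 113 CPM on chow. The groups were far apart, with an 8.51-fold difference (log2 3.09 ± 0.14, adjusted p = 7.88e-17). Gla had 51.7, 65.1 and 81.9 CPM on HFD and 10.2, 11.9 and 14.8 CPM on chow (log2 2.51 ± 0.11, adjusted p = 3.36e-17). Gusb, the beta-glucuronidase that trims glycosaminoglycans, had 319, 339 and 439 CPM on HFD and 50.9, 70.9 and 78.2 CPM on chow (log2 2.44 ± 0.15, adjusted p = 3.32e-14). Neither pair of groups overlapped. Fuca1, the fucosidase, was the hydrolase not called, at 0.20 ± 0.11 (adjusted p = 0.117).

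The cofactors Psap and Gm2a, the activator for ganglioside breakdown, both rose on HFD in WT EPI fat, at 1.93 and 0.64. All 5 proton pump subunits rose, with a median log2 fold change of 1.21. Atp6v1a, the catalytic subunit of the pump, had 225, 369.8 and 515 CPM on HFD and 114, 138 and 146 CPM on chow. Its groups did not overlap (log2 1.61 ± 0.15, adjusted p = 3.68e-10). All 5 membrane proteins also rose, but by less, with a median of 0.35. Lamp1 had 1178, 1306 and 1416 CPM on HFD and 754, 757 and 799.7 CPM on chow (log2 0.86 ± 0.09, adjusted p = 5.59e-09). Mcoln1 had 27.2, 28.9 and 31.8 CPM on HFD and 21.0, 24.6 and 27.0 CPM on chow (log2 0.35 ± 0.09, adjusted p = 0.00238). Both kept their groups apart. Tfeb had 17.9, 21.8 and 23.9 CPM on HFD and 7.48, 9.63 and 11.6 CPM on chow, without overlap (log2 1.22 ± 0.10, adjusted p = 1.78e-11). Creg1, a secreted glycoprotein that lysosomes also hold, rose by 1.76 on the log2 scale.

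Macrophage transcript rose in the same EPI libraries. The 15 macrophage markers summed to 3443, 4037 and 4936 CPM on HFD, against 1163, 1399 and 1948 CPM on chow, and 14 of 15 were higher and 1 was lower. Of 6 markers of lipid-associated macrophages all 6 were higher, with a median log2 fold change of 5.12, and they summed to 3182, 4066 and 6118 CPM on HFD and 134, 154 and 209.8 CPM on chow. Of 10 adipocyte markers 1 was higher and 8 were lower. With the macrophage score (the mean log2(CPM + 1) of the 15 markers) as a covariate, 9 of the 32 genes were higher on HFD and 0 were lower, with a median of 0.55, where 2.63% of genes tested were higher and 3.38% were lower. For the 29 genes the log2 fold changes were a median of 0.499 times those without the score and the SEs 2.65 times. The 9 included Gla at 2.19, Lipa at 2.09, Atp6v1a at 1.86 and Ctss at 1.68. The score differs between the diets itself, and the part of macrophage number in these values was not tested.

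In SC fat of WT mice HFD moved fewer lysosome genes. Of the 32 genes 22 were higher and 1 was lower, where 22.6% of 14220 genes tested were higher and 21.5% were lower (44.1% in all). The median log2 fold change was 0.55 over the 32 genes and -0.03 over all genes. Their sum was 10282, 12086 and 13515 CPM in WT HFD SC libraries and 6701, 7563 and 10527 CPM in WT chow SC libraries, with a slight overlap through WT chow library 6.

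The leading genes in SC fat were Ctsd and Ctsl. Ctsd had 1653, 2019.7 and 3090.2 CPM on HFD, against 662, 731 and 1006 CPM on chow. The groups did not overlap (3.15-fold, log2 1.65 ± 0.12, n = 7 HFD and 8 chow, adjusted p = 8.88e-12). Ctsl had 744, 909 and 1093 CPM on HFD and 291, 360.3 and 475 CPM on chow, also apart (log2 1.51 ± 0.11, adjusted p = 2.52e-12). Lipa had 112, 166 and 279 CPM on HFD and 65.4, 83.3 and 177 CPM on chow, with overlap (log2 0.97 ± 0.17, adjusted p = 2.69e-05). Ctsf, a cysteine protease, had 47.0, 54.2 and 75.2 CPM on HFD and 28.4, 34.2 and 42.5 CPM on chow, without overlap (log2 0.92 ± 0.12, adjusted p = 6.73e-07). By role, 5 of 9 cathepsins, 8 of 9 hydrolases, both cofactors, all 5 pump subunits and 2 of 5 membrane proteins were higher. Atp6v1a had 54.9, 176 and 216 CPM on HFD and 93.5, 107 and 132 CPM on chow, and overlapped through its lowest HFD library (log2 0.76 ± 0.16, adjusted p = 0.000259). Lamp1 had 700.4, 796 and 952 CPM on HFD and 615, 650.3 and 782 CPM on chow, with overlap (log2 0.45 ± 0.10, adjusted p = 0.000347). Mcoln1 and Tfeb were not called, at 0.15 ± 0.11 (adjusted p = 0.281) and 0.07 ± 0.17 (adjusted p = 0.753).

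Ctss in SC fat had 137, 168 and 283 CPM in WT HFD libraries and 28.0, 131 and 437 CPM in WT chow libraries. The chow range enclosed the HFD range (log2 0.10 ± 0.30, adjusted p = 0.795), and its 3 highest values, 437, 372 and 311 CPM, were those of the macrophage-rich libraries 6 to 8. Macrophage markers in SC fat summed to 960.4, 1116 and 1619 CPM on HFD and 682, 968 and 2521 CPM on chow, and 0 of 15 were higher and 1 was lower. That count is from the fit with chow libraries 6 to 8, which had the highest chow sums. The other chow libraries had 682 to 1005 CPM of these markers. Of the lipid-associated macrophage markers 4 of 6 were higher. Ctsc was the 1 lysosome gene lower on HFD in SC fat, at -0.59 ± 0.22 (adjusted p = 0.0298). Without WT chow SC libraries 6 to 8 its log2 fold change was -0.02 (adjusted p = 0.944). Without those libraries 22 of the 32 genes were called, and 20 of these 22 were among the 23 called with them.

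**Figure D2:**
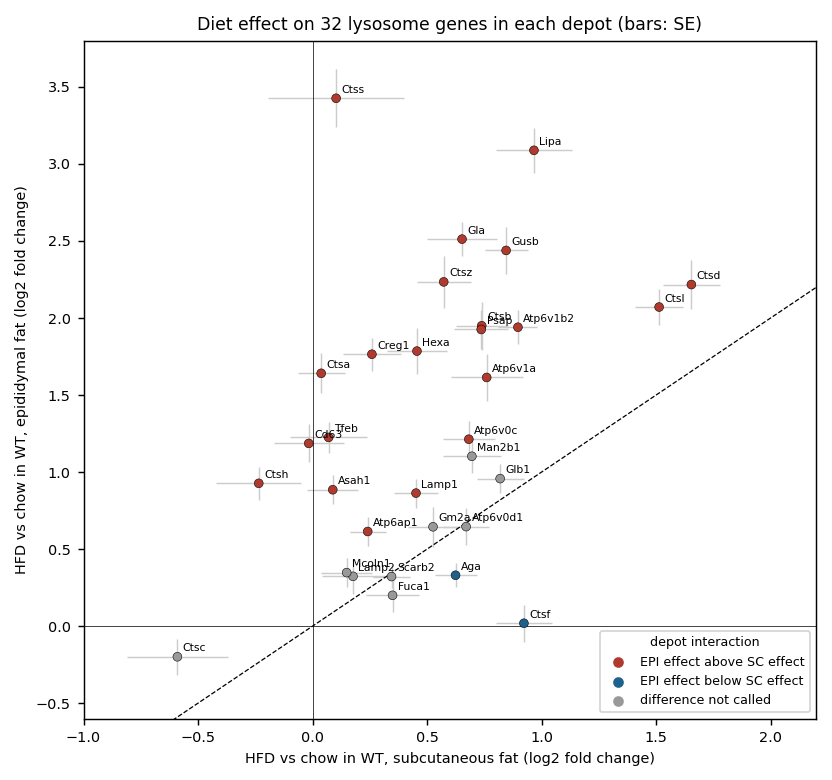
Log2 fold change of each of the 32 lysosome genes for HFD against chow in WT mice, with EPI fat on the vertical axis and SC fat on the horizontal axis, bars of 1 SE and a dashed line of equal change. Colours mark genes whose change differed between the depots, and Ctss (3.43 in EPI, 0.10 in SC) lies farthest above the line while Ctsf (0.02 in EPI, 0.92 in SC) lies below it. The SC value of Ctss includes the macrophage-rich WT chow SC libraries, which held its highest chow values.

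The difference between the depots was tested as an interaction, over all groups of both depots. Here and in every other depot comparison the libraries of both depots were taken as independent. The labels do not say whether they share mice. The diet response of WT mice was larger in EPI fat for 21 of the 32 genes and smaller for 2, where 16.1% of all genes tested were larger and 17.3% were smaller (33.3% in all). The median interaction was 0.62 over the 32 genes and -0.07 over all genes. It was largest for Ctss (log2 3.28 ± 0.35, adjusted p = 1.43e-10), Lipa (2.07 ± 0.21, adjusted p = 3.25e-11), Gla (1.80 ± 0.19, adjusted p = 9.95e-11) and Ctsz (1.61 ± 0.19, adjusted p = 1.06e-09), the carboxypeptidase cathepsin. Ctsf (-0.96 ± 0.17, adjusted p = 7.04e-06) and Aga, which removes sugar from asparagine (-0.35 ± 0.11, adjusted p = 0.00961), responded more in SC fat. Ctsd and Ctsl differed less between the depots, at 0.51 and 0.50. With the macrophage score as a covariate 15 of the 32 genes were called, 13 larger and 2 smaller in EPI fat, where 5.32% of genes tested were larger and 5.27% were smaller. Without WT chow SC libraries 6 to 8, 21 genes were called, all among the 23 called with them. The log2 values of those 23 were then a median of 0.900 times as large, and the interaction of Aga was -0.21 (adjusted p = 0.152). Libraries 6 to 8 held the highest Ctss values of WT chow SC fat, so the size of the Ctss interaction depends in part on them.

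Loss of Inhbe on HFD was the next comparison. In EPI fat 0 of the 32 lysosome genes were higher and 27 were lower in KO HFD mice than in WT HFD mice, where 17.0% of genes tested were higher and 20.2% were lower (37.2% in all). The median log2 fold change was -0.77 over the 32 genes and 0.01 over all genes. The 32 genes summed to 9778, 13096 and 16417 CPM in KO HFD EPI libraries, against 24914, 25964 and 29722 CPM in WT HFD EPI libraries, with no overlap. In KO HFD EPI fat the share of all counts had a median of 1.31%.

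Ctss had 143, 204 and 312 CPM in KO HFD EPI libraries and 724, 910.1 and 1119.5 CPM in WT HFD EPI libraries. It was 3.85-fold lower in KO fat, with every KO library below every WT library (log2 -1.95 ± 0.18, n = 8 each, adjusted p = 7.14e-10). Lipa had 156, 224 and 329 CPM in KO HFD and 684, 725 and 921 CPM in WT HFD (log2 -1.58 ± 0.14, adjusted p = 2.99e-10). Gla had 15.8, 20.8 and 25.9 CPM in KO HFD and 51.7, 65.1 and 81.9 CPM in WT HFD (log2 -1.47 ± 0.11, adjusted p = 2.31e-11). Neither gene's groups overlapped. Ctsl had 507, 665 and 738 CPM in KO HFD and 1474, 1963 and 2281 CPM in WT HFD, again apart (log2 -1.37 ± 0.11, adjusted p = 1.64e-10). Ctsd, whose transcript was abundant throughout, had 1466, 2071 and 2874 CPM in KO HFD and 3770.4, 3889 and 4782 CPM in WT HFD (log2 -0.82 ± 0.15, adjusted p = 6.11e-05).

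By role, 7 of 9 cathepsins, 8 of 9 hydrolases, both cofactors, 4 of 5 membrane proteins and 4 of 5 pump subunits were lower in KO HFD EPI fat, as were Tfeb and Creg1. Tfeb had 8.09, 10.5 and 12.8 CPM in KO HFD and 17.9, 21.8 and 23.9 CPM in WT HFD, without overlap (log2 -0.87 ± 0.10, adjusted p = 5.33e-08). Atp6v1a had 76.0, 212 and 229.8 CPM in KO HFD and 225, 369.8 and 515 CPM in WT HFD (log2 -0.85 ± 0.15, adjusted p = 4.08e-05). Its lowest WT library lay just inside the KO range. Lamp1 had 749.6, 898 and 1144 CPM in KO HFD and 1178, 1306 and 1416 CPM in WT HFD, without overlap (log2 -0.36 ± 0.09, adjusted p = 0.0032). The 5 genes not called were Mcoln1 at 0.20 ± 0.09 (adjusted p = 0.0866), Ctsf at 0.00 ± 0.12, Ctsc at -0.19 ± 0.12, Atp6v0d1 at -0.06 and Aga at 0.01.

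The 15 macrophage markers summed to 1092, 1473 and 2508 CPM in KO HFD EPI libraries and 3443, 4037 and 4936 CPM in WT HFD EPI libraries, and 0 were higher and 14 were lower. The lipid-associated macrophage markers summed to 381, 663 and 955 CPM in KO HFD and 3182, 4066 and 6118 CPM in WT HFD, with all 6 lower. Of the 10 adipocyte markers 9 were higher in KO HFD. Adding the macrophage score left 3 lysosome genes lower in KO HFD and 0 higher, namely Gla (-1.19 ± 0.26), Creg1 (-0.98) and Ctsl (-0.92), and the median over the 32 genes was -0.09, where 1.16% of genes tested were lower and 3.97% were higher. For the 27 genes called without the score the SEs were a median of 2.40 times as large, and 8 of the 27 took the other sign. The score separates the genotypes too, and the part of macrophage number was not tested.

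In SC fat 0 of the 32 genes were higher and 18 were lower in KO HFD mice than in WT HFD mice, where 7.32% of genes tested were higher and 11.6% were lower. The median was -0.43 over the 32 genes and -0.01 over all genes. The 32 genes summed to 6803, 7451 and 8093 CPM in KO HFD SC libraries and 10282, 12086 and 13515 CPM in WT HFD SC libraries, without overlap. All but 1 of the 9 hydrolases, 4 of 9 cathepsins, both cofactors, 2 of 5 membrane proteins and 1 of 5 pump subunits were lower, and so was Creg1. Without the 4 SC libraries poor in lymph node transcript (WT HFD 1, 2 and 4 and WT chow 1) 19 genes were called, 14 of them among the 18.

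Ctsl had 274, 326 and 366 CPM in KO HFD SC libraries, against 744, 909 and 1093 CPM in WT HFD SC libraries. It was 2.59-fold lower in KO fat, with no overlap (log2 -1.38 ± 0.11, n = 8 KO and 7 WT, adjusted p = 8.59e-11). Ctsd had 955, 996 and 1143 CPM in KO HFD and 1653, 2019.7 and 3090.2 CPM in WT HFD, also apart (log2 -0.92 ± 0.12, adjusted p = 2.5e-06). Cd63, a tetraspanin of late endosomes and lysosomes whose reads may be shared with a pseudogene, had 60.6, 84.8 and 89.8 CPM in KO HFD and 114, 150.5 and 291 CPM in WT HFD (log2 -0.90 ± 0.15, adjusted p = 8.76e-05). Man2b1, the lysosomal alpha-mannosidase, had 93.9, 101 and 112 CPM in KO HFD and 161, 177 and 294 CPM in WT HFD (log2 -0.81 ± 0.13, adjusted p = 3.24e-05). The groups of both were apart. Lipa had 82.6, 99.1 and 121 CPM in KO HFD and 112, 166 and 279 CPM in WT HFD, with a small overlap (log2 -0.65 ± 0.17, adjusted p = 0.00596). Lamp1 had 535, 597 and 642 CPM in KO HFD and 700.4, 796 and 952 CPM in WT HFD (log2 -0.31 ± 0.10, adjusted p = 0.0226), without overlap.

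Atp6v1a, Tfeb, Mcoln1 and Ctss were not called between KO and WT in SC fat on HFD. Their log2 fold changes were 0.21 ± 0.16, -0.40 ± 0.17, 0.03 ± 0.11 and -0.81 ± 0.30, and the adjusted p of Ctss was 0.0525. Ctss nevertheless had non-overlapping groups, with 81.3, 93.8 and 117 CPM in KO HFD and 137, 168 and 283 CPM in WT HFD. Macrophage markers summed to 550.5, 665 and 714 CPM in KO HFD SC libraries and 960.4, 1116 and 1619 CPM in WT HFD SC libraries, and 0 of 15 were higher and 8 were lower. Lipid-associated macrophage markers summed to 88.4, 116 and 155 CPM in KO HFD and 240, 336 and 990 CPM in WT HFD, without overlap. With the macrophage score as a covariate 14 of the 32 lysosome genes were lower and 1, Ctsc, was higher at 0.94, where 10.5% of genes tested were lower and 4.30% were higher. The macrophage marker sums of the genotypes did not overlap either, and the part of macrophage number was not tested.

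**Figure D3:**
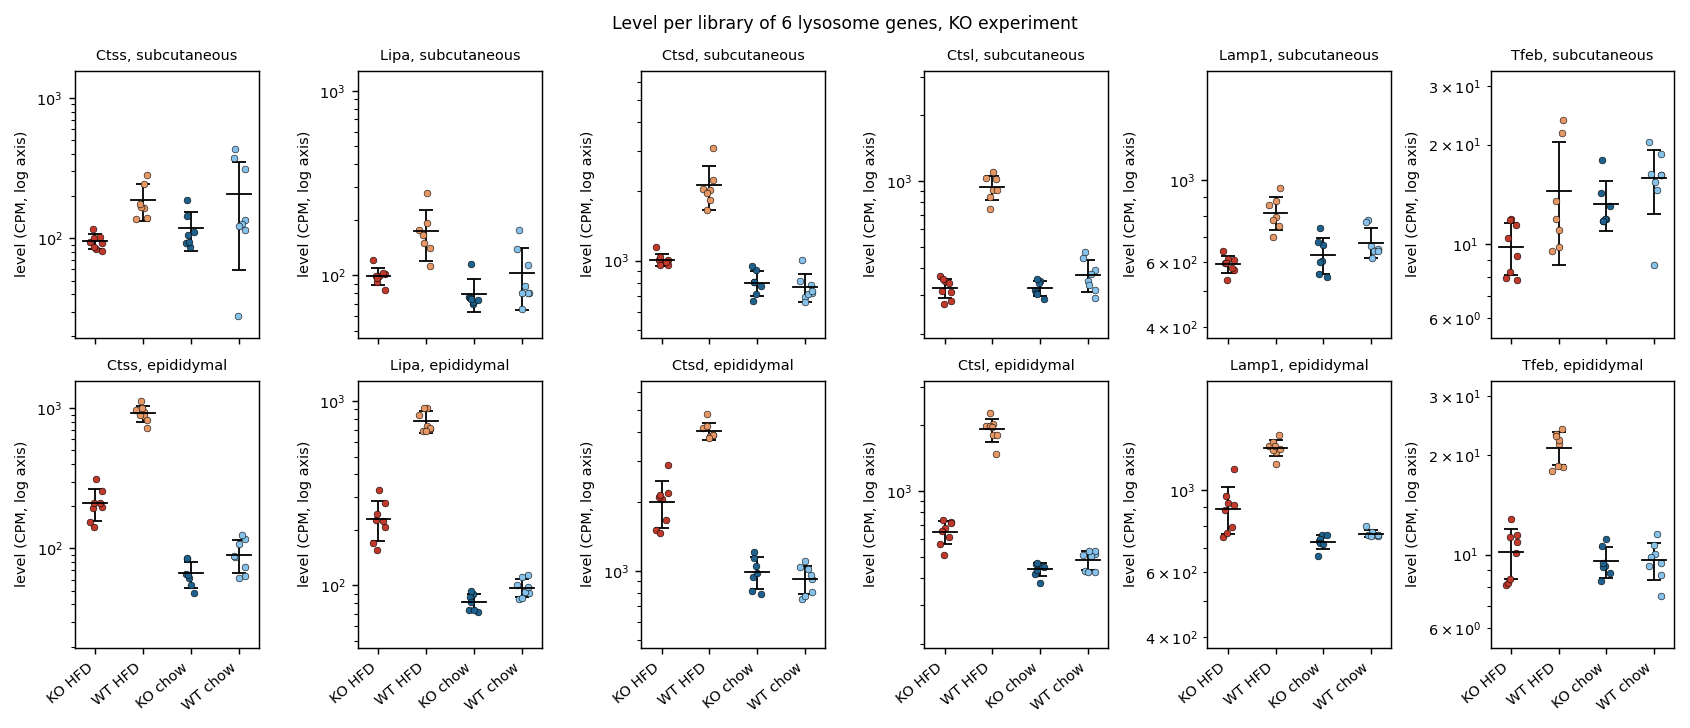
Level in CPM on a log axis of Ctss, Lipa, Ctsd, Ctsl, Lamp1 and Tfeb in each library of the KO experiment, with SC fat in the upper panels and EPI fat in the lower panels. In EPI fat the KO HFD libraries of Ctss (143 to 312 CPM) lie between the WT HFD libraries (724 to 1119.5 CPM) and the chow libraries (at most 125 CPM).

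Between the depots, the KO response on HFD differed in 12 of the 32 genes. The interaction was negative for 10 genes, meaning a lower value in EPI fat, and positive for 2, where 6.87% of genes tested were negative and 7.76% were positive. The median was -0.29 over the 32 genes and 0.02 over all genes. Negative values were led by Ctss (-1.14 ± 0.35, adjusted p = 0.0196), Atp6v1a (-1.06 ± 0.22, adjusted p = 0.000883), Lipa (-0.94 ± 0.21, adjusted p = 0.00185) and Gla (-0.90 ± 0.19, adjusted p = 0.00119). The 2 positive genes were Ctsf (0.73 ± 0.17, adjusted p = 0.00224) and Aga (0.42 ± 0.11, adjusted p = 0.0068). Ctsl and Ctsd had interactions of -0.00 and 0.08.

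Within KO mice, HFD still raised most lysosome genes in EPI fat. Of the 32 genes 25 were higher and 1 was lower on HFD than on chow, where 24.7% of genes tested were higher and 13.9% were lower (38.7% in all), and the median was 0.54 over the 32 genes and 0.00 over all genes. Ctss had 143, 204 and 312 CPM in KO HFD and 48.0, 64.7 and 86.0 CPM in KO chow, without overlap (log2 1.90 ± 0.19, n = 8 HFD and 7 chow, adjusted p = 3.69e-09). Lipa had 156, 224 and 329 CPM in KO HFD and 71.2, 81.2 and 92.8 CPM in KO chow, also apart (log2 1.73 ± 0.14, adjusted p = 1.8e-10). Ctsz and the pump subunit Atp6v1b2 followed, at 1.52 ± 0.17 and 1.41 ± 0.11, and all 5 pump subunits rose. Tfeb had 8.09, 10.5 and 12.8 CPM in KO HFD and 8.31, 9.23 and 11.2 CPM in KO chow, with wide overlap (log2 0.34 ± 0.11, adjusted p = 0.0114). Its mean levels were 4.34 CPM per kb in KO HFD and 4.07 CPM per kb in KO chow. CPM uses library totals, whereas the fit also scales libraries by TMM factors, so fitted log2 values can differ from ratios of CPM. Ctsc was lower on HFD, at -0.40 ± 0.12 (adjusted p = 0.00999). Without KO HFD EPI library 4, 24 genes were called, 23 of them among the 26 called with it. The median over the 32 genes was then 0.41, and the log2 values of the 26 were a median of 0.812 times as large. Macrophage markers summed to 1092, 1473 and 2508 CPM in KO HFD and 859, 1170.3 and 1384 CPM in KO chow, with 10 of 15 higher and 1 lower. Lipid-associated macrophage markers summed to 381, 663 and 955 CPM in KO HFD and 85.0, 125 and 186 CPM in KO chow, without overlap. The part of macrophage number was not tested. In the fit with the macrophage score 16 lysosome genes were higher and 1 was lower, where 13.0% of genes tested were higher and 6.72% were lower.

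In SC fat of KO mice 8 of the 32 genes were higher and 1 was lower on HFD than on chow, where 11.7% of genes tested were higher and 9.05% were lower. The median was 0.14 over the 32 genes and -0.04 over all genes. Of the 8 genes 4 were pump subunits, namely Atp6v1a (0.75 ± 0.16, adjusted p = 0.000915), Atp6v1b2 (0.66 ± 0.09, adjusted p = 1.39e-06), Atp6v0d1 (0.39) and Atp6v0c (0.38, with counts that were not whole in 49 of 101 libraries). Atp6v1a had 158, 169 and 180.2 CPM in KO HFD SC libraries and 103, 119.7 and 138 CPM in KO chow SC libraries, without overlap. Lipa (0.59 ± 0.17) and Ctsd (0.58 ± 0.12) rose as well, together with Ctsz and Ctsb. Cd63 fell by 0.68 on the log2 scale (SE 0.15, adjusted p = 0.00164), with 60.6, 84.8 and 89.8 CPM in KO HFD and 126, 151 and 197 CPM in KO chow, without overlap. Ctsl, a leading gene in WT SC fat, had 274, 326 and 366 CPM in KO HFD and 287, 317 and 355 CPM in KO chow, with wide overlap (log2 0.26 ± 0.11, adjusted p = 0.0761).

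Whether the diet response differed by genotype was tested directly, as the interaction of KO and HFD. In EPI fat it was negative for 20 of the 32 genes and positive for 0, where 8.70% of genes tested were negative and 7.83% were positive, and the median was -0.68 over the 32 genes and 0.03 over all genes. The largest were Ctss (-1.53 ± 0.25, adjusted p = 7.31e-05), Gla (-1.40 ± 0.15, adjusted p = 5.66e-07), Lipa (-1.36 ± 0.19, adjusted p = 1.45e-05) and Creg1 (-1.29 ± 0.15, adjusted p = 1.24e-06). Tfeb was at -0.89 ± 0.15 (adjusted p = 7.92e-05). Under the macrophage score 2 genes were called, Gla at -1.17 and Creg1 at -1.01, where 0.844% of genes tested were negative and 2.15% were positive, and SEs were a median of 1.52 times as large for the 20 genes. Without KO HFD EPI library 4 it was called for 26 genes, the 20 included. In SC fat the interaction was negative for 7 genes and positive for 0, where 1.75% of genes tested were negative and 0.387% were positive (2.14% in all), and the median was -0.30 over the 32 genes and 0.01 over all genes. The 7 genes were Ctsl (-1.25 ± 0.15, adjusted p = 6.74e-06), Ctsd (-1.07 ± 0.17, adjusted p = 0.000345), Ctsf (-0.80 ± 0.17, adjusted p = 0.01), Glb1 (-0.69 ± 0.14, adjusted p = 0.00623), Man2b1 (-0.69), Gm2a (-0.67) and Gusb (-0.62). Without WT chow SC libraries 6 to 8 the interaction was negative for 10 genes, 6 of them among the 7, and that of Ctsf was -0.65 with an adjusted p of 0.0501. Leaving out KO chow SC library 5 as well gave 6 genes, all among the 7. Without the libraries poor in lymph node transcript 6 genes were called, 5 of them among the 7.

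On chow, KO and WT fat did not differ in any lysosome gene at the threshold. In SC fat 0 of 32 were called, where 0.134% of genes tested were higher and 0.12% were lower in KO mice, and in EPI fat 0 of 32 were called, where 0.173% were higher and 0.485% were lower. DESeq2 also called 0 of the 32 in either depot. At an unadjusted p under 0.05 there was 1 lysosome gene in SC fat and 2 in EPI fat, beside 6.68% and 6.12% of all genes. The log2 fold changes ran from -0.67 to 0.22 in SC fat and from -0.42 to 0.15 in EPI fat. Those with the smallest p were Ctss (-0.67 ± 0.30, adjusted p = 0.659) and Gla (-0.28 ± 0.16, adjusted p = 0.839) in SC fat and Scarb2, a receptor that carries glucocerebrosidase (-0.21 ± 0.08, adjusted p = 0.465), and Ctss (-0.42 ± 0.18, adjusted p = 0.645) in EPI fat. Without WT chow SC libraries 6 to 8 the SC values of Ctss and Gla were 0.20 and 0.06, and without KO chow SC library 5 as well they were 0.06 and -0.02. In EPI fat Ctss had 48.0, 64.7 and 86.0 CPM in KO chow and 61.1, 87.8 and 125 CPM in WT chow, with overlap. The comparisons of the KO experiment share groups with one another, so their values stand side by side and are not independent.

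**Figure D4:**
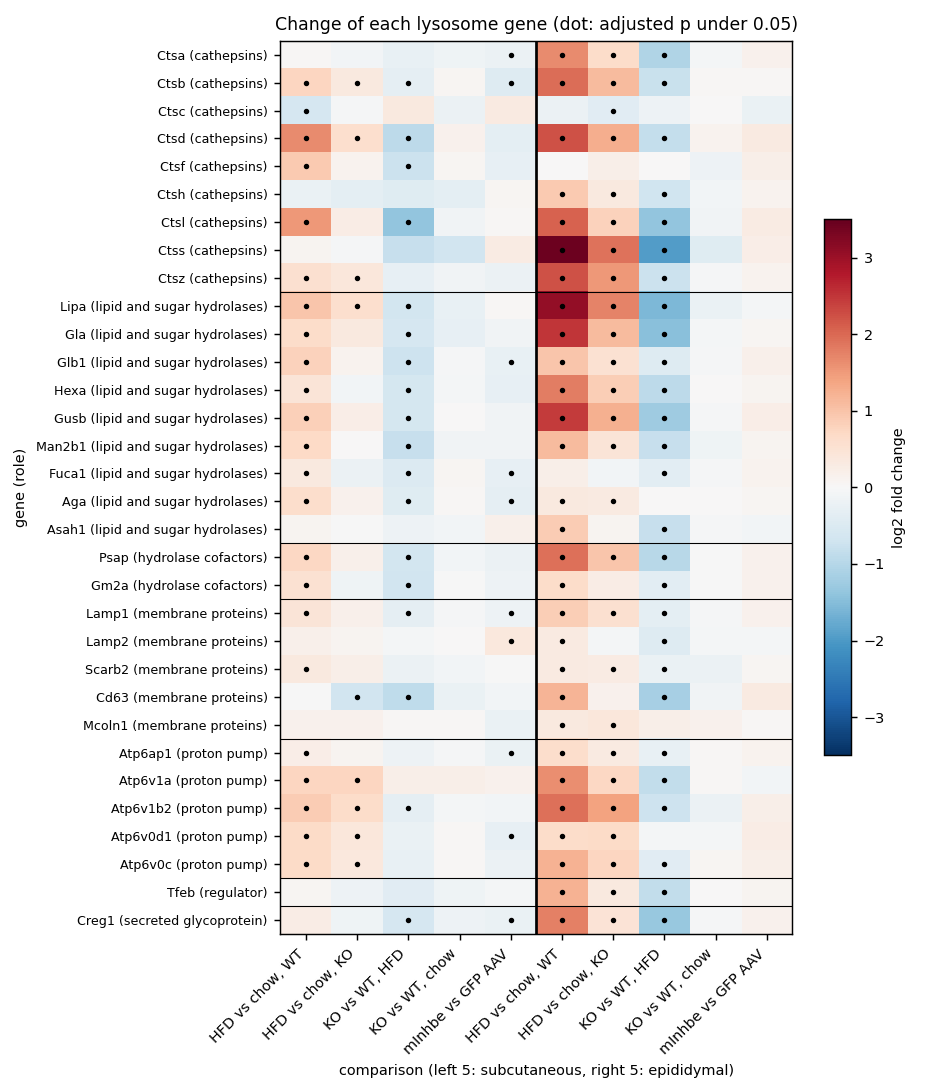
Log2 fold change of each of the 32 lysosome genes in 10 comparisons, the left 5 in SC fat and the right 5 in EPI fat, with a dot at an adjusted p under 0.05. The last column of each depot is mInhbe against GFP in the AAV experiment, and the other columns are from the KO experiment. The columns for KO against WT on chow hold 0 dots, and those for EPI fat of HFD mice hold 29 dots for diet in WT and 27 for KO against WT.

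Other genes of the pathway moved in part. The shares of all genes to set beside these EPI counts are 28.9% higher and 25.2% lower for the diet in WT mice and 17.0% higher and 20.2% lower for the KO on HFD. Of 26 further lysosomal hydrolases 19 were higher and 2 were lower on HFD in WT EPI fat, and 2 were higher and 18 were lower in KO HFD against WT HFD. They were led by the collagen-degrading cathepsin Ctsk, with a log2 fold change of 3.65 ± 0.15 for the diet (adjusted p = 2.86e-18) and -2.05 ± 0.14 for the KO on HFD (adjusted p = 4.1e-12). Of 20 further membrane proteins 17 were higher and 1 was lower for the diet, and 1 was higher and 13 were lower for the KO, among them Cd68, a macrophage glycoprotein, at 3.89 and -1.72. Of 13 further V-ATPase subunits 12 were higher for the diet, and 1 was higher and 5 were lower for the KO. Tcirg1, a subunit of immune cells and osteoclasts, was at 2.70 and -1.67. Of 21 genes of lysosome delivery and TFEB regulation 16 were higher and 2 were lower for the diet, and 4 were higher and 8 were lower for the KO. Fnip2 (2.09 and -1.42) and Igf2r, the mannose 6-phosphate receptor (1.31 and -0.79), moved with the lysosome genes, and the sorting receptor Sort1 (-0.85 and 0.96) moved against them. Of 18 autophagy genes 7 were higher for the diet, with a median of 0.13, and 3 were higher and 4 were lower for the KO, with a median of 0.06, which is close to the shares over all genes for the KO.

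In SC fat the shares of all genes were 22.6% higher and 21.5% lower for the diet and 7.32% higher and 11.6% lower for the KO on HFD. Of the further hydrolases 13 were higher and 3 were lower on HFD in WT mice, and 0 were higher and 15 were lower in KO HFD against WT HFD, with Galns, a sulfatase, at 1.03 and -0.92. The further membrane proteins summed to 1264, 1297 and 1719 CPM in WT HFD and 955, 1234 and 1693 CPM in WT chow, with wide overlap. In KO HFD they summed to 1010, 1043 and 1081 CPM, below every WT HFD library. Genes of lysosome delivery and TFEB regulation summed to 1312, 1720 and 1847 CPM in WT HFD. They overlapped with WT chow (1511, 1601 and 1691 CPM) and KO HFD (1490, 1641 and 1681 CPM). Of the further pump subunits 9 were higher for the diet, and 2 were higher and 3 were lower for the KO. Atp6v0a1 was at 1.71 and -0.54. Of the autophagy genes 8 were higher for the diet and 1 was higher and 4 were lower for the KO. The autophagy receptor Sqstm1 was at 0.62 and -0.42, Map1lc3a at 1.03 and -0.75, and Wipi1 at 1.18 and -0.58. In KO against WT on chow 0 genes of these lists were called in either depot.

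The mInhbe vector asked the opposite question, that of excess Activin E in lean mice. In SC fat 1 lysosome gene was higher and 9 were lower in mInhbe mice than in GFP mice, where 15.8% of 13990 genes tested were higher and 11.4% were lower. The median was -0.18 over the 32 genes and 0.00 over all genes. Without GFP SC library 2 the median over the 32 genes was -0.11, with 9 genes called. The 32 genes summed to 7701, 8358 and 9685 CPM in mInhbe SC libraries and 8188, 9002 and 10502 CPM in GFP SC libraries, with wide overlap.

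Ctsb had 1211, 1416 and 1746 CPM in mInhbe SC libraries and 1579, 1759 and 2132 CPM in GFP SC libraries. It was lower in mInhbe fat, with overlap (log2 -0.46 ± 0.08, n = 10 each, adjusted p = 0.000843). Aga had 16.9, 19.3 and 23.7 CPM in mInhbe and 18.5, 23.1 and 26.2 CPM in GFP (log2 -0.32 ± 0.07, adjusted p = 0.00345). Atp6v0d1, a pump subunit, had 71.3, 86.3 and 102 CPM in mInhbe and 88.1, 96.1 and 108 CPM in GFP (log2 -0.29 ± 0.08, adjusted p = 0.015). Both overlapped. Fuca1 was at -0.28 ± 0.07 (adjusted p = 0.00947), and the other 5 lower genes were Glb1, Creg1, Atp6ap1, Ctsa and Lamp1, between -0.26 and -0.19. Lamp2, a membrane glycoprotein needed for autophagy, was the 1 higher gene, with 229.9, 301 and 374 CPM in mInhbe and 133, 205 and 265 CPM in GFP. Its groups overlapped slightly (log2 0.38 ± 0.11, adjusted p = 0.0146). Ctsd (-0.35 ± 0.17), Lipa (0.04 ± 0.09), Mcoln1 (-0.23 ± 0.14), Tfeb (-0.07 ± 0.14) and Atp6v1a (0.14 ± 0.09) were not called.

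Cell type markers moved in part in the same SC libraries, where 15.8% of all genes tested were higher and 11.4% were lower. Lymph node markers summed to 883, 1311 and 1903 CPM in mInhbe and 651, 981 and 1438 CPM in GFP, with 3 of 12 higher. Macrophage markers summed to 844, 1224 and 1472 CPM in mInhbe and 704, 971 and 1294 CPM in GFP. Of these 2 of 15 were higher, which is near the share over all genes. Adipocyte markers summed to 13330, 16159 and 22332 CPM in mInhbe and 19055, 21603 and 25676 CPM in GFP, with 5 of 10 lower. Adding the same kind of score for the lymph node markers to the fit left 1 lysosome gene called, where 0.915% of genes tested were higher and 1.20% were lower, and moved the median over the 32 genes to -0.07. The log2 fold changes of the 10 genes were then a median of 0.626 times those without the score. Adding the macrophage score left 3 called, where 4.12% of genes tested were higher and 3.93% were lower, with log2 fold changes a median of 0.898 times and SEs 1.10 times those without it. What part the mix of cells had was not tested. Of the 26 further hydrolases 0 were higher and 5 were lower, including Npc2, a carrier of cholesterol, at -0.41. Of the 13 further pump subunits 5 were lower, and of the 18 autophagy genes 5 were lower, with Atg7 at -0.68. The share of all genes to set beside these counts is the 11.4% that were lower without a score. The further membrane proteins summed to 1261, 1324 and 1485 CPM in mInhbe and 1171, 1330 and 1488 CPM in GFP, with wide overlap. Genes of lysosome delivery and TFEB regulation summed to 1375, 1482 and 1622 CPM in mInhbe and 1541, 1719 and 1915 CPM in GFP, also with overlap.

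In EPI fat 0 of the 32 genes were called between mInhbe and GFP mice, where 0.761% of 14850 genes tested were higher and 0.404% were lower (1.16% in all). DESeq2 called 0, and 6 of the 32 had an unadjusted p under 0.05, as had 11.2% of all genes. The median was 0.12 over the 32 genes and 0.00 over all genes, and 27 of the 32 log2 fold changes were above 0, within -0.22 to 0.32. The smallest p were those of Atp6v1b2 (0.21 ± 0.07, adjusted p = 0.267) and Cd63 (0.32 ± 0.12, adjusted p = 0.298). Ctsd had 826, 1108 and 1533 CPM in mInhbe EPI libraries and 614, 929 and 1176 CPM in GFP EPI libraries, with overlap (log2 0.32 ± 0.14, adjusted p = 0.387).

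**Figure D5:**
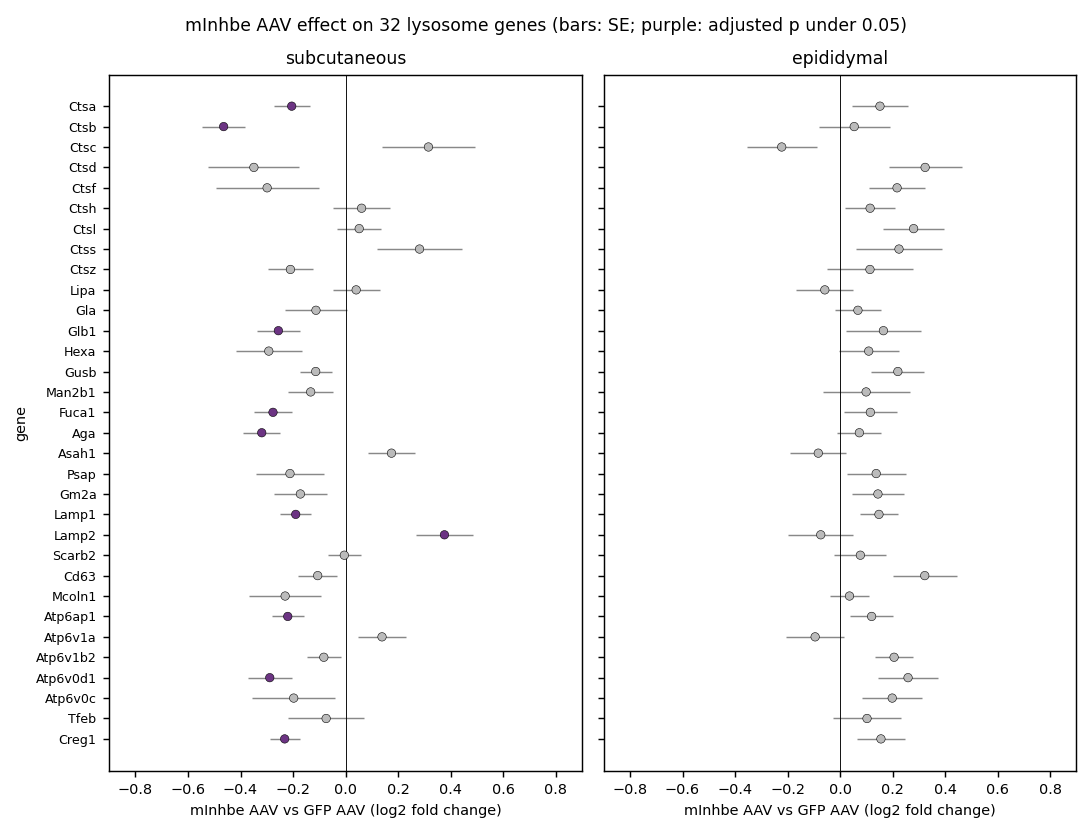
Log2 fold change of each of the 32 lysosome genes for mInhbe against GFP, with bars of 1 SE, in SC fat on the left and EPI fat on the right, coloured where the adjusted p was under 0.05. In SC fat 9 genes are called below 0 and Lamp2 above it at 0.38, and in EPI fat 0 are called.

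The vector response was called as different between the depots for 10 of the 32 genes, all with a higher value in EPI fat. Of 15416 genes tested 4.09% were higher and 9.41% were lower. The fit took the libraries of both depots as independent, and the labels do not say whether they share mice. The median interaction was 0.32 over the 32 genes and 0.02 over all genes. Ctsd (0.66 ± 0.22, adjusted p = 0.0437), Atp6v0d1 (0.53 ± 0.14, adjusted p = 0.0147), Ctsb (0.50 ± 0.16, adjusted p = 0.0289) and Cd63 (0.42 ± 0.14, adjusted p = 0.0459) had the largest values. Without the libraries that stood apart (GFP SC 2 and GFP EPI 7 and 8) 6 genes were called, with log2 values a median of 0.960 times those of all libraries. With the replicate number as a block 0 genes were called, with log2 values a median of 0.991 times and SEs 1.12 times those without it.

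Between the depots of control mice the 32 genes went both ways. In GFP mice 12 were higher and 13 were lower in EPI than in SC fat, where 35.8% of genes tested were higher and 28.7% were lower (64.5% in all), and the median was -0.00 over the 32 genes and 0.06 over all genes. Higher in EPI fat were Lamp2 (0.81 ± 0.12, adjusted p = 1.41e-07), Gla (0.65 ± 0.10), Glb1 (0.60 ± 0.12) and Man2b1 (0.54 ± 0.13), and lower were Ctss (-0.94 ± 0.17, adjusted p = 9.35e-06), Tfeb (-0.92 ± 0.14, adjusted p = 2.32e-07), Ctsz (-0.77 ± 0.13) and Gm2a (-0.69 ± 0.10). In WT chow mice, which are other animals, 12 were higher and 3 were lower, where 24.5% of 15480 genes tested were higher and 18.7% were lower (43.1% in all), and the median was 0.17 over the 32 genes and 0.05 over all genes. Ctsf (0.62 ± 0.12), Fuca1 (0.61 ± 0.11), Man2b1 (0.45 ± 0.12) and Glb1 (0.44 ± 0.10) led the higher ones. The 3 lower genes were Tfeb (-0.66 ± 0.14, adjusted p = 7.93e-05), Ctss (-1.08 ± 0.24, adjusted p = 0.000213) and Ctsz (-0.37 ± 0.13, adjusted p = 0.0172). Without WT HFD EPI libraries 4 and 5, which share the fit, 11 genes were called. Without WT chow SC libraries 6 to 8, Ctss was at -0.19 (adjusted p = 0.54) and Ctsz at -0.17 (adjusted p = 0.378). All 12 lymph node markers were lower in EPI than in SC fat in both sets of controls. Epididymis markers had 3.32, 5964 and 11472 CPM in GFP EPI libraries and 0.867, 18.3 and 4730 CPM in WT chow EPI libraries. What part such tissue had in the depot values was not tested. Tfeb had 7.35, 11.7 and 16.3 CPM in GFP EPI libraries and 17.6, 18.9 and 32.3 CPM in GFP SC libraries, without overlap.

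The responses were also set beside the promoter letters shown above, as a description. On HFD in WT EPI fat 9 of the 10 genes with an E-box were higher, with a median of 1.29, and 15 of the 17 genes without one were higher, with a median of 1.21. In WT SC fat 8 of 10 with an E-box were higher, with a median of 0.72, against 11 of 17 without one, with 1 lower and a median of 0.35. For KO against WT on HFD in EPI fat 7 of 10 with an E-box were lower, with a median of -0.64, and 16 of 17 without one, with a median of -0.81. Among the printed promoters, Gla with 2 E-boxes and Lipa and Ctss with 0 had the largest diet responses in WT EPI fat, and Mcoln1, also with 2, had one of the smallest.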

How the data were processed

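RNA was measured in 101 libraries of SC and EPI fat. Per the labels' protocols, libraries were made with a KAPA mRNA HyperPrep kit and adapters with molecular identifiers and read as paired ends on a NovaSeq. The genome build was mm10, per the submitters' processing notes. Which aligner and counter were run, and whether the identifiers were used, the sources used here do not say. The authors deposited estimated counts per gene, with 1 table for each of the 2 experiments; 2.93% (KO) and 2.95% (AAV) of the cells were not whole within 1e-06, and all were rounded before fitting because the planned test needs whole counts. Counts of Atp6v0c (not whole in 49 of 101 libraries), Glb1 (15), Psap (5) and Lamp2 (2) were not whole, as when reads are shared between genes, and Atp6v0c and Cd63 have pseudogenes in the tables, so these levels are uncertain. Symbols of 24375 of 24475 Entrez IDs came from the RefSeq annotation of GRCm38.p6.

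Each depot was fitted apart with all its groups, and depot comparisons used both depots together, with their libraries taken as independent. filterByExpr removed low genes (minimum count 10 and 15 in total), TMM factors scaled the libraries, and edgeR 4.0.16 ran its robust quasi-likelihood F test with Benjamini-Hochberg adjustment over all genes tested. An SE is the size of the log2 fold change over the root of its F. Levels per kb used the longest RefSeq-paired transcript in the GENCODE annotation. Common coefficients of biological variation were 0.219 (SC) and 0.319 (EPI) for the AAV libraries and 0.266 (SC) and 0.341 (EPI) for the KO libraries. The fits were tested on simulated data. Software also included DESeq2 1.42.0, limma 3.58.1 and R 4.3.3, and pandas 2.3.3, numpy 2.4.6 and matplotlib 3.10.9 under Python 3.11.15.

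Up to 4 called genes per direction with the largest change, 2 by p where none was called, and Ctsd, Lamp1, Lipa, Mcoln1, Tfeb and Atp6v1a are named, with further genes, such as Ctsl and Ctsc in some comparisons, added after their values were seen. The 32 genes, the pathway lists and the marker lists were chosen with earlier results of these data known. Of 12 epididymis markers 11 were matched. Alternatives were other scaling, no filter, DESeq2, leaving libraries out, score covariates and a replicate block. The series text gives 8 mice for WT HFD where the labels list 7 SC libraries, and the labels were followed.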

Additional observations from a re-analysis of the deposited data

Results flagged for a closer look

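Of 84 sets of values (7 measures in 12 groups), 14 had a highest or lowest library far from the others of its group by Dixon's test, where chance gives about 1 in 20. Ctsd was at 1143 CPM in KO HFD SC library 3, 3090.2 CPM in WT HFD SC library 6 and 1006 CPM in WT chow SC library 6. Mcoln1 was at 38.9 CPM in KO HFD EPI library 4, 38.6 CPM in WT HFD SC library 6, 42.8 CPM in GFP SC library 2 and 34.0 CPM in GFP EPI library 5. Tfeb was at 18.0 CPM in KO chow SC library 4 and 32.3 CPM in GFP SC library 2. Lipa was at 115 CPM in KO chow SC library 5 and 101 CPM in GFP EPI library 7, and Lamp1 at 799.7 CPM in WT chow EPI library 6. Atp6v1a was at 76.0 CPM in KO HFD EPI library 4, the lowest of its group, whose median was 212 CPM. The 32 genes summed to 29722 CPM in WT HFD EPI library 5, one of the 2 libraries with liver transcript.

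Differences between groups in the same contrast passed the threshold as interactions for these genes, on the log2 scale. The KO effect differed between HFD and chow in SC fat for Ctsl (-1.25), Ctsd (-1.07), Ctsf (-0.80) and Glb1 (-0.69), and in EPI fat for Ctss (-1.53), Gla (-1.40), Lipa (-1.36) and Creg1 (-1.29). The mInhbe effect was called as different between EPI and SC fat for Ctsd (0.66), Atp6v0d1 (0.53), Ctsb (0.50) and Cd63 (0.42). With a replicate block 0 lysosome genes were called for this interaction. The diet effect in WT mice differed between EPI and SC fat for Ctss (3.28), Lipa (2.07), Gla (1.80), Ctsz (1.61), Ctsf (-0.96) and Aga (-0.35), the last not called without WT chow SC libraries 6 to 8. The highest Ctss values of WT chow SC fat were those of the same libraries. The KO effect on HFD differed between EPI and SC fat for Ctss (-1.14), Atp6v1a (-1.06), Lipa (-0.94), Gla (-0.90), Ctsf (0.73) and Aga (0.42).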

How the results depend on the processing

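Of the counts of called lysosome genes, 140 recomputed counts stayed within 1.5 times and 9 did not. With the macrophage score as a covariate the count was 3 instead of 10 for mInhbe against GFP in SC fat, 3 instead of 27 for KO against WT on HFD in EPI fat, 9 instead of 29 for HFD in WT EPI fat, 17 instead of 26 for HFD in KO EPI fat, 2 instead of 20 for the interaction of KO and HFD in EPI fat, and 15 instead of 23 for the interaction of HFD and depot. With the lymph node score it was 1 instead of 10 for mInhbe in SC fat. The interaction of mInhbe and depot gave 10 genes, but 0 with a replicate block and 6 without the libraries that stood apart, while the log2 values were a median of 0.991 and 0.960 times as large. Same-numbered libraries deviated together little, with median correlations of -0.10 to 0.09 between sets. Such values cannot tell whether 2 libraries came from 1 mouse, and the labels do not say, so the block rests on a shared number only. The block kept all other counts within 1.5 times (7 for mInhbe in SC fat). For KO against WT on chow in SC fat, uncalled values changed sign: Ctss from -0.67 to 0.0576 and Gla from -0.28 to 0.0452 with the macrophage score, and to 0.199 and 0.0568 without WT chow SC libraries 6 to 8, and Ctss to 0.0638 without KO chow SC library 5 as well. Leaving these out was chosen after seeing the data, as was leaving out those poor in lymph node or rich in liver transcript and KO HFD EPI library 4. Of the named genes' values 642 kept their side of the threshold, 35 lost the call and 5 reversed. The mix of cells in bulk fat limits every comparison.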

Other observations

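The genes whose levels were most like the mean of the 32 lysosome genes, after group means were removed, differed between the experiments. Over the 61 libraries of the KO experiment they were Lgmn (Pearson r = 0.93), Tyrobp (0.90), Cd68 (0.89), Trem2 (0.89) and Slc11a1 (0.89). Lgmn is a lysosomal protease, Tyrobp a signalling adaptor of myeloid cells and Trem2 a lipid receptor of macrophages. Over the 40 libraries of the AAV experiment they were Cmtm3 (0.80), Rbbp4 (0.78), Cmip (0.78), Bace2 (0.77) and Grb2 (0.76). These correlations describe libraries that share tissue composition and depth. Among the 32 genes themselves, Ctsa followed the mean most closely, at 0.93 in the KO experiment and 0.77 in the AAV experiment, and the lowest were Atp6v1a at -0.05 in the KO experiment and Lamp2 at -0.22 in the AAV experiment.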
